A study of Mus musculus with 12 samples.

Results

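Cytosolic ribosomal proteins are the protein components of the ribosome that makes protein in the cytoplasm. Genes were taken as members where a probe set of the array was annotated to exactly 1 gene and the symbol was Rpl or Rps with a number (with or without a final a or x), Rplp0, Rplp1, Rplp2 or Rpsa. Where a gene had several such probe sets, the brightest by its mean over the 12 arrays was used. This gave 57 genes of the 22180 genes tested, 35 of the large subunit and 22 of the small subunit. RefSeq lists 76 protein-coding mouse symbols of this form. Of the other 19, 12 (among them Rpl10, Rpl12, Rpl13a, Rps2 and Rps21) were annotated only to probe sets of several genes, and the rest were not analysed here.

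The study set adipose progenitors (AP) beside the adipose tissue (AT) that holds them, in C57BL/6 mice, with 3 arrays for each of 4 groups. AP came from enzymatically dissociated inguinal fat (SAT, subcutaneous) or perigonadal fat (VAT, visceral), as stromal vascular cells left once antibody-coated beads had taken out blood cells (lineage-positive) and CD31-positive cells, which include the endothelium. AT was the unfractionated tissue of the same depots, and all material was freshly isolated. Several mice contributed to a preparation by the study's design text, and no sex or age is given here. The labels call the arrays biological replicates and number them alike in the 4 groups. Nothing ties a replicate to its animals, and the main fit did not pair the arrays. The p-values therefore reflect only how these samples spread, which may be technical in part.

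Each ribosome has a small subunit, which reads the messenger RNA, and a large subunit, which joins the amino acids. Both need 1 copy of nearly every ribosomal protein, and the genes for them are usually expressed together in a narrow range. Many of their messengers start with a cytosine followed by a run of pyrimidines, the 5′ terminal oligopyrimidine (TOP) tract, through which the growth-regulating kinase mTOR and the RNA-binding protein Larp1 control their translation and stability. In fat, adipocytes are filled by a lipid droplet, and progenitors are stromal cells from which adipocytes can form.

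The start regions of 44 members were found in RefSeq's table (build GRCm38.p6). They are shown because a TOP tract, where a gene has one, lies at the start of its messenger. Each line gives 40 bases before and 12 bases after an annotated start, read 5′ to 3′ on the gene's strand. The first 6 are of genes called in both depots (below), and capitals mark a tract of C followed by at least 4 pyrimidines that begins within 5 bases of the start.
Rps27 (chr3:90213637-90213688, minus strand): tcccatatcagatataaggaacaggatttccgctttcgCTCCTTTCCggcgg
Rps18 (chr17:33955654-33955705, minus strand): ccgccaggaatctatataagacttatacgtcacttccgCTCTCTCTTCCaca
Rps10 (chr17:27635233-27635284, minus strand): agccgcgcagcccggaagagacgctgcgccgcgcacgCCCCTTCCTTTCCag
Rps6 (chr4:86857356-86857407, minus strand): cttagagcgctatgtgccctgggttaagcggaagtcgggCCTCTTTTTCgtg
Rpl28 (chr7:4792925-4792976, plus strand): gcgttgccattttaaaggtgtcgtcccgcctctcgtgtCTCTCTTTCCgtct
Rpl38 (chr11:114668540-114668591, plus strand): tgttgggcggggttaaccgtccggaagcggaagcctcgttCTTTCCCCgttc
The next pair has no such tract at the annotated start shown, and capitals mark the palindromic CTCGCGAGA box instead.
Rps28 (chr17:33824551-33824602, minus strand): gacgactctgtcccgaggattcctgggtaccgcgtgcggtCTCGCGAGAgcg
Rpl10a (chr17:28328525-28328576, plus strand): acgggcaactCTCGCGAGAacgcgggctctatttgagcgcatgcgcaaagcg
The last pair has no tract at the annotated start and no box in the window shown.
Rpl13 (chr8:123102310-123102361, plus strand): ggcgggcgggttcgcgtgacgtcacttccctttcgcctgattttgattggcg
Rplp0 (chr5:115559427-115559478, plus strand): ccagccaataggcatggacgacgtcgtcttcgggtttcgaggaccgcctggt

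A tract was found in 19 of the 44 members (43.2%), against 21.2% of the 27025 genes in the table. It was found in 12 of 20 members called in both depots, 3 of 11 called in 1 depot and 4 of 13 called in neither. These shares describe the annotated starts, and a start placed a few bases off hides a tract. Other motifs were searched on both strands over the 300 bases from 250 before to 50 after the start. The ETS core CCGGAAG, which factors such as GABP bind, was present in 20 of 44 members (45.5%) against 9.93% of all genes. The box CTCGCGAGA was present in 6 (13.6%) against 0.762%. The YY1 core AAGATGGC was present in 2 (4.55%) against 3.19%, the E-box CACGTG, which Myc binds, in 4 (9.09%) against 8.09%, and TATAAA in 4 (9.09%) against 15.7%. Matches of different motifs that overlap were counted for each motif.

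Ribosomal protein messengers were higher in AP than in AT in both depots. In SAT, 37 of the 57 members were called higher and 0 lower, with a median log2 difference of 0.44. Over all genes tested, 16.1% were called higher and 16.3% lower, and the median was 0.03. In VAT, 29 members were called higher and 0 lower, with a median of 0.33, against 15.8% and 16.8% of all genes and a median of 0.03. Called means an adjusted p under 0.05 in limma's moderated test, with Benjamini-Hochberg adjustment over all genes. At an unadjusted p under 0.05, the count of lower members was 0 in each depot as well.

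Most differences were under 2-fold. At least 2-fold differences were reached by 4 members in SAT and 1 in VAT. The members called in both depots were 26 (10.6% of all genes were called higher in both), and 11 were called in SAT alone, 3 in VAT alone and 17 in neither. The value was positive in both depots for 47 members. Across the 57 members, the differences of the depots had a Pearson correlation of 0.704 and a Spearman correlation of 0.695, given as a description over genes. AP and AT values did not overlap, with AP higher, for 44 members in SAT (23.5% of all genes) and for 35 in VAT (20.5%). With AT higher they did not overlap for 1 member in SAT (21.1%) and 3 in VAT (20.4%).

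**Figure D1:**
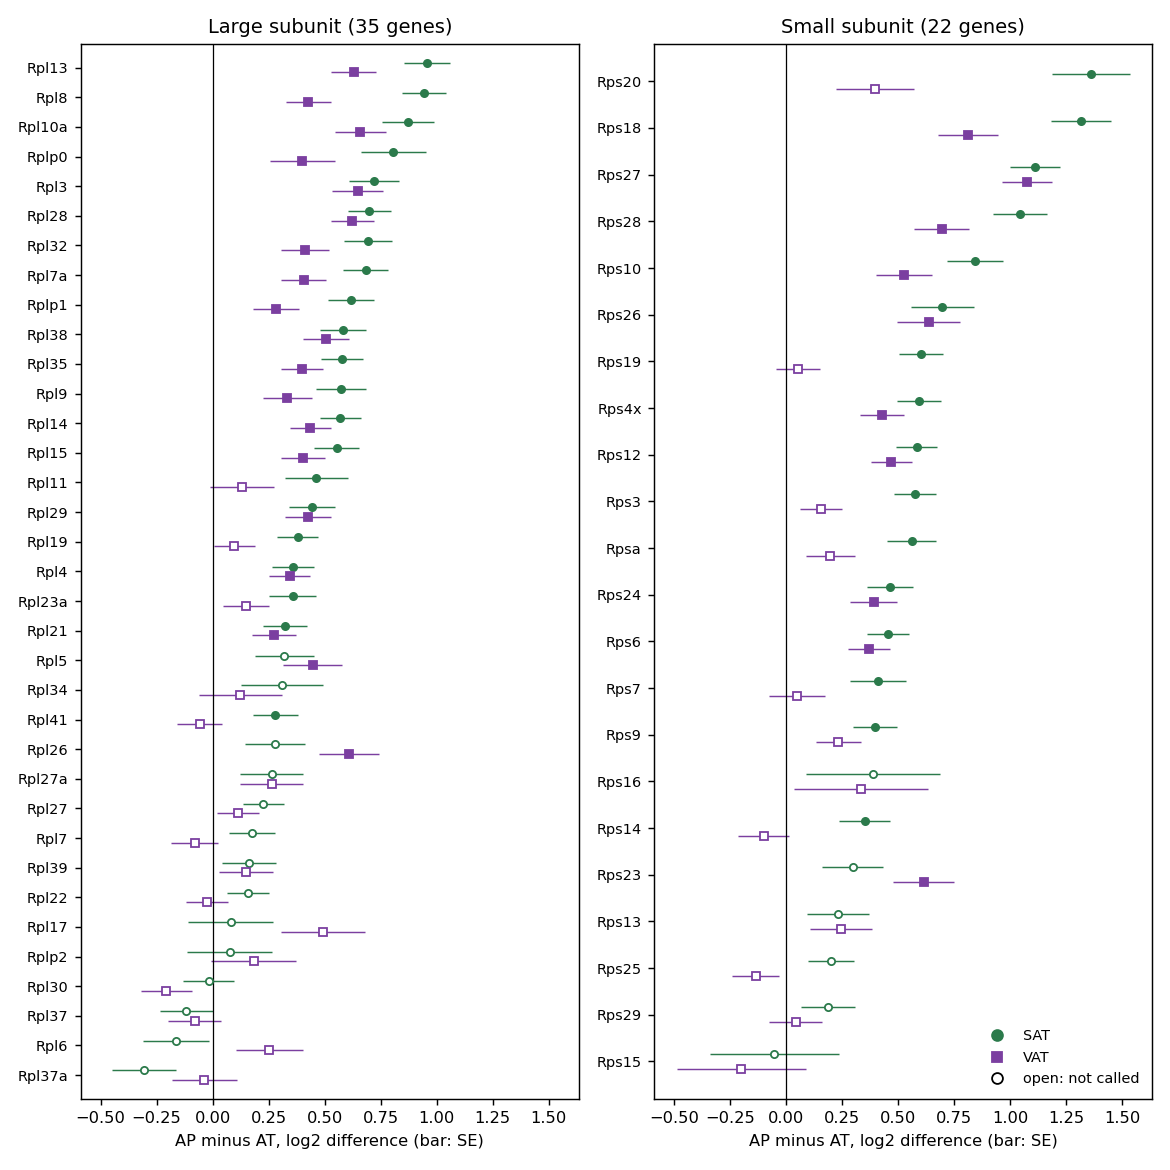
Difference between AP and AT (x axis, log2 units) for each of the 57 members, large subunit on the left and small subunit on the right. Circles are SAT, squares VAT, bars the standard error of the fit, and filled symbols passed the test; most symbols lie right of 0, and the filled ones all do, from 0.27 upward.

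Markers of several cell types differed between the preparations. For comparison, 16.1% of all genes were called higher and 16.3% lower in AP in SAT, and 15.8% and 16.8% in VAT. All 11 progenitor markers were called higher in AP from SAT and 10 of 11 in AP from VAT. All 11 adipocyte markers and all 8 macrophage markers were called lower in AP in both depots, and so were 7 of 8 endothelial markers. The summed adipocyte level, as log2 of the summed intensities, was 11.15 to 11.44 in AP and 14.85 to 15.04 in AT. The macrophage sum was 8.02 to 8.39 in AP and 11.75 to 12.44 in AT, and the progenitor sum 14.76 to 15.24 in AP and 13.28 to 14.26 in AT. Of 6 mural markers, which mark pericytes and smooth muscle, 4 were called higher in AP from SAT and 6 in AP from VAT, with sums of 12.64 to 13.09 in AP and 10.59 to 11.07 in AT. Of 8 mesothelial markers, 1 and 3 were called higher in AP, with sums in VAT of 11.87 to 12.35 in AP and 11.30 to 11.62 in AT. The count of 1 of 8 was near the share of all genes. The lymphocyte marker sum was 7.52 to 7.66 in AP and 8.45 to 9.54 in AT. All 21 immediate early genes, which cell dissociation can induce, were called higher in AP in each depot, with medians of 4.02 and 4.05. Only AP was dissociated, so handling, cell make-up and cell state cannot be told apart in any difference between AP and AT. In bulk RNA, fewer cells of a type and less RNA per cell cannot be told apart either. The part of these markers in the ribosomal protein differences was not tested.

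The stalk of the large subunit is a flexible arm of Rplp0 with pairs of Rplp1 and Rplp2, and it recruits the GTPases of translation. Rplp0 read 8.52, 8.77 and 8.39 in AP from SAT and 7.77, 7.95 and 7.54 in AT from SAT. In VAT it read 8.60, 8.31 and 8.13 in AP and 7.85, 7.90 and 8.09 in AT. Values of AP lay above those of AT in both depots, though in VAT only by a narrow margin. Rplp0 rose by 0.81 in SAT (SE 0.145, adjusted p = 0.000368) and by 0.40 in VAT (SE 0.145, adjusted p = 0.0455, limma). Its other, dimmer probe set had uncalled values of 0.20 in SAT (adjusted p = 0.379) and 0.36 in VAT (adjusted p = 0.0854). Rplp1 rose by 0.62 in SAT and by 0.28 in VAT (adjusted p = 0.0466). The other, dimmer probe set of Rplp1 was called in both depots, at 0.47 in SAT (adjusted p = 0.00585) and 0.34 in VAT (adjusted p = 0.0399, limma). The VAT call of Rplp0 was lost on leaving out array AP SAT 1, AP VAT 1, AP VAT 2, AT SAT 1, AT VAT 1 or AT VAT 2 (adjusted p 0.0555 to 0.211). That of Rplp1 was lost without each array other than AP SAT 3 and AP VAT 1 (adjusted p 0.0537 to 0.145). Rplp2, whose probe set was dim (mean 4.19), had values of 0.08 and 0.18 and was not called. With probe sets of several genes added, its brightest one was at -0.73 in VAT and was called lower (adjusted p = 0.00313, limma).

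The proteins near the catalytic centre followed the same direction. Rpl3 and Rpl8 reach towards the peptidyl transferase centre, where peptide bonds form in RNA. Rpl8 read 10.24, 10.14 and 10.16 in AP from SAT, 9.28, 9.10 and 9.33 in AT from SAT, 9.94, 9.81 and 9.83 in AP from VAT and 9.34, 9.52 and 9.44 in AT from VAT. None of the 4 groups overlapped another, although the AT groups nearly met, and every AP value exceeded every AT value. Rpl8 rose by 0.94 in SAT (SE 0.10, 1.92-fold, adjusted p = 2.10e-06) and by 0.43 in VAT (SE 0.10, adjusted p = 0.00357). Rpl3 rose by 0.72 in SAT and by 0.65 in VAT (SE 0.112 for each). Its 2 other probe sets had differences of 0.19 and 0.28 in SAT and 0.08 and 0.03 in VAT, none of which was called. As the mean of its probe sets, Rpl3 was at 0.25 in VAT, uncalled (adjusted p = 0.0844).

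Of 7 proteins that line or ring the exit tunnel, through which the new peptide leaves, 4 rose in SAT and 3 in VAT. Rpl4 rose by 0.36 and 0.34 in SAT and VAT, and Rpl35 by 0.58 and 0.40. Rpl19 and Rpl23a rose in SAT, by 0.38 and 0.36, and had uncalled values of 0.10 and 0.15 in VAT. The other, dimmer probe set of Rpl19 had an uncalled value of 0.26 in SAT and was called in VAT, at 0.38 (adjusted p = 0.0330). The call of Rpl23a was lost without replicate 1 of AP or of AT from SAT (adjusted p 0.0555 and 0.0850). Rpl26, near the tunnel's exit, had the reverse order, with 0.28 in SAT (uncalled) and a rise of 0.61 in VAT (SE 0.134, adjusted p = 0.00223). The difference of its depots was 0.33 (SE 0.190, adjusted p = 0.495). Rpl17 and Rpl39 were not called in either depot. With probe sets of several genes added, Rpl26 (0.63) and Rpl39 (0.41) were called in SAT. The proteins Rpl5 and Rpl11 form with the 5S RNA a particle that can also bind the p53 regulator Mdm2. Rpl5 rose in VAT by 0.45 (adjusted p = 0.0161) and Rpl11 in SAT by 0.46 (adjusted p = 0.0196). Both had low levels. The call of Rpl5 was lost without replicate 3 of AP from VAT or 2 of AT from VAT (adjusted p 0.0689 and 0.0769), and that of Rpl11 without replicate 3 of AP from SAT or 1 or 3 of AT from SAT (adjusted p 0.0562 to 0.118). The call of Rpl5 was also lost with quantile normalization, cyclic loess or probe sets of several genes added (adjusted p 0.0516 to 0.201).

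Of the other 21 large subunit genes, 12 rose in SAT and 11 in VAT, and the medians of the 21 were 0.32 and 0.27. The largest was Rpl13, which read 10.54, 10.56 and 10.53 in AP from SAT and 9.55, 9.56 and 9.65 in AT from SAT. In VAT it read 10.41, 10.27 and 10.23 in AP and 9.52, 9.70 and 9.80 in AT. All AP values exceeded all AT values, and AP from SAT stood above AP from VAT. Rpl13 rose by 0.96 in SAT (SE 0.101, 1.94-fold, adjusted p = 1.99e-06) and by 0.63 in VAT (SE 0.101, adjusted p = 0.000146). Its other probe set gave 1.25 and 0.84, both called. Rpl10a rose by 0.87 and 0.66, Rpl28 by 0.70 and 0.62, and Rpl38, known for its part in translating Hox messengers in the embryo, by 0.58 and 0.51. Rpl37a, Rpl6, Rpl37 and Rpl30 had negative values in SAT (-0.31, -0.16, -0.12 and -0.02), all uncalled. Rpl37a was the 1 member with AT above AP throughout in SAT. It read 4.59, 4.86 and 4.85 in AP and 5.02, 5.26 and 4.94 in AT. With probe sets of several genes added, Rpl37a was at 0.50 in SAT and was called higher (adjusted p = 0.00155).

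In the small subunit, 16 of 22 genes rose in SAT and 10 in VAT, with medians of 0.51 and 0.35. In the head of that subunit, which holds the transfer RNAs from above, 7 of 11 rose in SAT and 4 in VAT. Rps18 is a head protein at the bridge to the large subunit. It read 7.57, 7.89 and 7.73 in AP from SAT, 6.49, 6.33 and 6.42 in AT from SAT, 7.93, 7.71 and 7.38 in AP from VAT and 6.79, 6.97 and 6.83 in AT from VAT. Every AP value lay above every AT value, and AT from SAT was the lowest group. Rps18 rose 2.49-fold in SAT, by 1.32 (SE 0.134, adjusted p = 1.32e-06), and 1.75-fold in VAT, by 0.81 (SE 0.134, adjusted p = 0.000193). Its 2 other, dimmer probe sets had uncalled values of -0.01 and -0.06 in SAT and -0.09 and 0.23 in VAT. As the mean of its probe sets, Rps18 was uncalled in VAT (0.32, adjusted p = 0.0581).

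Rps28, a head protein near the exit site of the messenger, read 10.28, 10.36 and 10.29 in AP from SAT and 9.06, 9.38 and 9.36 in AT from SAT. In VAT it read 10.15, 10.01 and 10.05 in AP and 9.14, 9.47 and 9.52 in AT. The 2 preparations did not overlap, and AP from SAT was the highest group. Rps28 rose by 1.04 in SAT (SE 0.121, 2.06-fold, adjusted p = 5.30e-06) and by 0.69 in VAT (SE 0.121, adjusted p = 0.000321). Its other probe set, near background, had uncalled values of 0.15 and 0.12. Rps10 and Rps12 rose in both depots, by 0.84 and 0.58 in SAT and 0.53 and 0.47 in VAT. Rps15, Rps16, Rps25 and Rps29 of the head were not called in either depot, though Rps16 was called in both with probe sets of several genes added (0.63 and 0.41).

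In the body and platform of the small subunit, 9 of 11 genes rose in SAT and 6 in VAT. Rps27, a zinc finger protein of the platform, had nearly equal differences in the depots. It read 7.39, 7.34 and 7.50 in AP from SAT, 6.26, 6.31 and 6.33 in AT from SAT, 7.36, 7.06 and 7.32 in AP from VAT and 6.32, 6.18 and 6.02 in AT from VAT. Its AP arrays all read above its AT arrays in each depot. Rps27 rose by 1.11 in SAT (SE 0.111, 2.16-fold, adjusted p = 1.18e-06) and by 1.07 in VAT (SE 0.111, 2.10-fold, adjusted p = 1.83e-06), the 1 member at least 2-fold in VAT. Rps6, which the S6 kinases phosphorylate downstream of mTOR, rose by 0.45 and 0.37. Rps26, next to the messenger's exit, rose by 0.70 and 0.64, and Rps4x by 0.59 and 0.43. As the mean of its probe sets, Rps26 was uncalled in VAT (0.29, adjusted p = 0.0630). Rpsa, also known as the laminin receptor precursor, rose in SAT by 0.56 and was at 0.20 in VAT (adjusted p = 0.192). Rps23, which sits at the decoding centre, rose in VAT by 0.61 and was at 0.30 in SAT (adjusted p = 0.116).

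**Figure D2:**
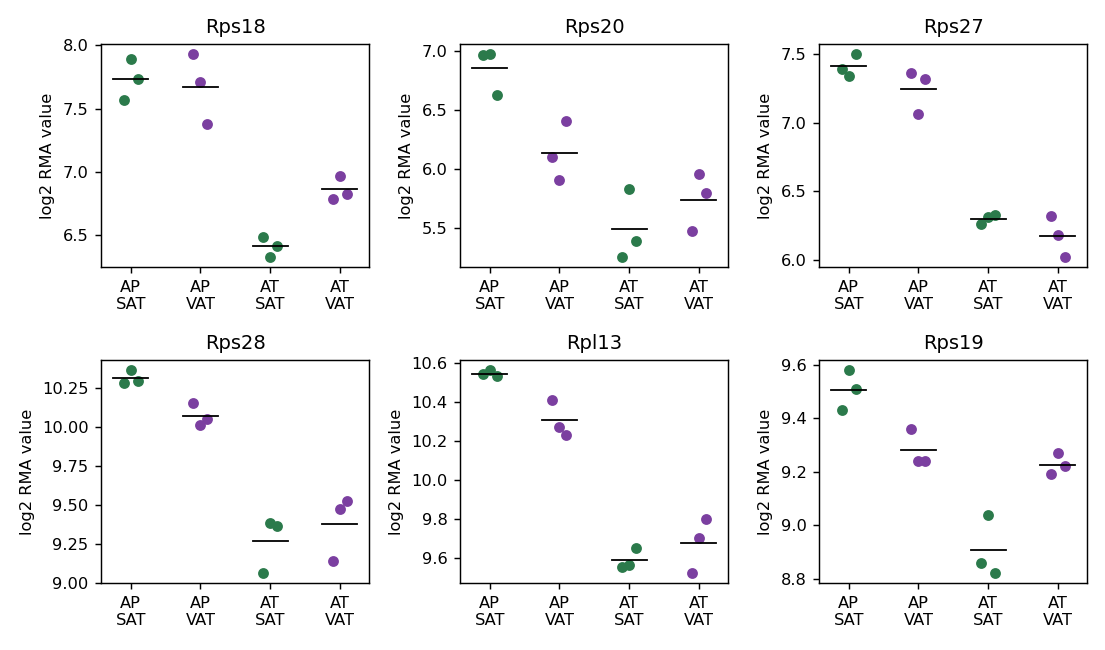
Log2 RMA value (y axis) in each of the 12 arrays for 6 members, 1 panel each, with a line at each group's mean (n = 3). AP and AT are apart in both depots for Rps18, Rps27, Rps28 and Rpl13, whereas AP from VAT lies with AT from VAT for Rps19 and, by its mean, between AP from SAT and the AT groups for Rps20.

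The subunits were compared through the mean over their members in each array. The large subunit mean was 8.33 ± 0.027 in AP from SAT, 8.25 ± 0.021 in AP from VAT, 7.94 ± 0.035 in AT from SAT and 7.96 ± 0.057 in AT from VAT (SD, n = 3). The small subunit mean was 8.23 ± 0.026, 8.07 ± 0.081, 7.65 ± 0.043 and 7.74 ± 0.055 in the same order. Both means were higher in every AP array than in every AT array. From AT to AP the large subunit mean differed by 0.40 in SAT and 0.29 in VAT, and the small subunit mean by 0.57 and 0.33.

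Levels of different probe sets cannot be set against each other, so the gap between the subunit means (large minus small) has a meaning here only as it moves between groups. The gap was 0.107 ± 0.042 in AP from SAT, 0.184 ± 0.066 in AP from VAT, 0.283 ± 0.069 in AT from SAT and 0.225 ± 0.021 in AT from VAT (SD, n = 3). In SAT the gap was 0.069 to 0.152 in the AP arrays and 0.237 to 0.362 in the AT arrays, without overlap. In VAT it was 0.114 to 0.243 in AP and 0.205 to 0.248 in AT, with overlap. No p-value is given for these scores, since the members were chosen with results of these data known. The gaps depended on the probe sets. With each gene as the mean of its probe sets, those of AT were 0.179 in SAT and 0.135 in VAT. Those of AP then moved by less than their SD above. With probe sets of several genes added, the gaps were 0.884 in AP and 0.970 in AT from SAT, and 0.902 in AP and 0.928 in AT from VAT.

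**Figure D3:**
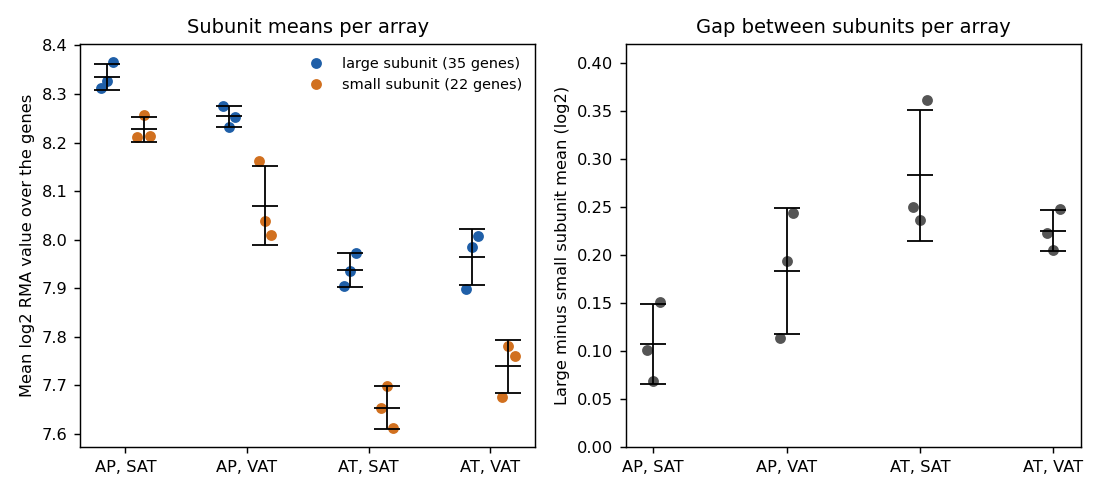
Left, mean log2 RMA value over the 35 large and the 22 small subunit genes in each array, by group; right, the large minus small difference of these means in each array. Points are arrays, lines and bars the mean and SD (n = 3); the means of AP exceed those of AT, and the gap is narrowest in AP from SAT (0.107) and widest in AT from SAT (0.283).

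Calls were more frequent among brighter probe sets. Of the 27 members with a mean of at least 9 over all arrays, 27 rose in SAT and 20 in VAT, and 45.2% and 36.1% of all genes of that brightness were called higher. Of 13 members between 6 and 9, 7 and 6 rose, against 29.4% and 23.9%. Of 17 members under 6, 3 rose in each depot, against 7.88% and 10.7%. The 17 members called in neither depot had a median of 5.22, and those called in both a median of 10.02. Rpl17, Rpl37 and Rps15 had means under 4.10 (the 40th percentile over the probe sets of the array) and were taken as near background. Ribosomal protein genes also have many near-identical processed pseudogenes, and some host small nucleolar RNAs in their introns, so what a single probe set detects is uncertain. The 33 other distinct probe sets of 23 members gave 14 calls higher in SAT, 15 in VAT and 0 lower, and 16.0% and 15.8% of all probe sets were called higher.

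**Figure D4:**
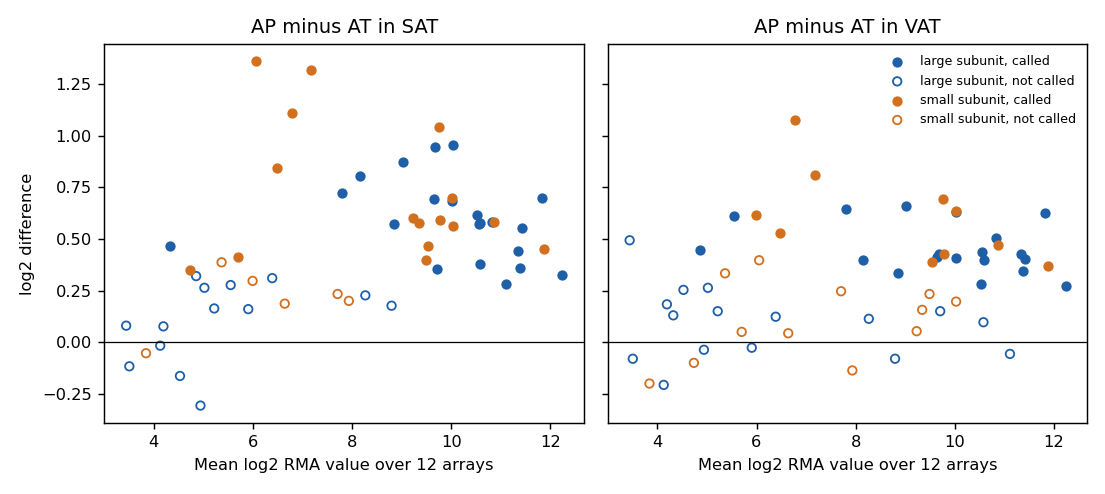
AP minus AT difference (y axis, log2) against the mean log2 RMA value over 12 arrays (x axis) for the 57 members, in SAT on the left and VAT on the right. Filled points passed the test; in SAT all 27 members with a mean of at least 9 are filled, and most of the open points lie under 6.

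Between the depots few members differed. In AP, 0 members were called higher in VAT and 1 lower (3.03% and 2.60% of all genes), by limma. AP groups did not overlap with VAT higher for 0 members (9.87% of all genes) and with VAT lower for 18 (10.5%). The median VAT minus SAT difference was -0.09, and 43 members had a negative value. The matching values over all genes are not given here, so these are a description alone. The called gene was Rps20, a head protein. It read 6.96, 6.97 and 6.62 in AP from SAT, 6.10, 5.90 and 6.40 in AP from VAT, 5.25, 5.83 and 5.39 in AT from SAT and 5.47, 5.95 and 5.79 in AT from VAT. AP from SAT stood above the other groups, and AP from VAT overlapped AT from VAT. Rps20 fell by 0.72 from SAT to VAT in AP (SE 0.174, adjusted p = 0.0213). The adjusted p was 0.0763 to 0.125 without replicate 1 or 2 of AP from SAT or replicate 1 or 2 of AP from VAT. Its other probe set, near background, had a value of 0.10 (adjusted p = 0.836), and the mean over both was uncalled (-0.31, adjusted p = 0.195). In this comparison all 8 mesothelial markers were higher in AP from VAT, with a median of 2.93, and 5 of 11 progenitor markers were lower. Their part in the result was not tested.

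In AT, 0 members were called in either direction between the depots (2.80% and 1.75% of all genes were called higher and lower). The AT groups did not overlap for 7 members with VAT higher (10.9% of all genes) and 3 with VAT lower (7.26%). The median was 0.07, and the values ran from -0.44 for Rpl17 to 0.45 for Rps18 (adjusted p = 0.0753).

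The interaction asked whether the step from AT to AP differed between the depots. The limma test called 0 members in either direction (0.987% and 1.16% of all genes). The step was smaller by value in VAT for 47 of the 57 members, with a median interaction of -0.16 against -0.0033 over all genes. All 11 head proteins had a negative value, as did most of the other members. The share of all genes with a negative value is not given here. Rps20 had the largest by size, at -0.96 (SE 0.245, adjusted p = 0.0570), from a rise of 1.36 in SAT (SE 0.174, adjusted p = 1.42e-05) and 0.40 in VAT (adjusted p = 0.0968). Its other probe set, near background, had nearly equal rises, by 0.41 in SAT (adjusted p = 0.0251) and 0.38 in VAT (adjusted p = 0.0389, limma). As the mean of its probe sets, Rps20 was called in VAT (0.39, adjusted p = 0.0212). Its interaction was called on leaving out AP from VAT 3, AT from SAT 2 or AT from VAT 1 (adjusted p 0.0232 to 0.0451), and with trend and robust options, array weights, quantile normalization or the filter on dim genes (0.0395 to 0.0462).

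Rps19, a head protein mutated in Diamond-Blackfan anaemia, had the lowest p among the members for the interaction. It read 9.43, 9.58 and 9.51 in AP from SAT, 8.86, 9.04 and 8.82 in AT from SAT, 9.36, 9.24 and 9.24 in AP from VAT and 9.19, 9.27 and 9.22 in AT from VAT. The SAT groups were apart and the VAT groups overlapped. Rps19 rose by 0.60 in SAT (SE 0.098) and was at 0.05 in VAT (SE 0.098). The interaction was -0.55 (SE 0.138, adjusted p = 0.0554) and was called without replicate 2 of AT from SAT (adjusted p = 0.0452), with array weights (0.0453) and with trend and robust options (0.0339). Its other probe set had AP minus AT values of 0.01 and 0.11. Rpl8 was at -0.52 (adjusted p = 0.0788) and was called with trend and robust options (0.0444).

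Genes that work with the ribosome moved less evenly. The counts and signs that follow hold for the values as deposited. Scaled to 10 housekeeping genes, every list median was positive, at 0.50 in VAT for the initiation factors and 0.75 for the biogenesis factors. The median of these 10 genes was itself lower in AP arrays (8.335 to 8.65) than in AT arrays (9.29 to 9.835). Such scaling shifts all genes of an array alike. Relative to the median of all genes, those list medians were therefore -0.40 and -0.15 under both scalings by construction. Of all genes, 16.1% rose and 16.3% fell in SAT, and 15.8% and 16.8% in VAT. Of 18 other TOP messengers of the translation apparatus, 9 rose and 2 fell in SAT (median 0.29), and 4 rose and 3 fell in VAT (median 0.12). The growth-related protein Tpt1 rose by 0.84 and 0.89, the elongation factor subunit Eef1b2 by 0.61 in SAT and its partner Eef1d by 0.55 in VAT. The histone chaperone Nap1l1 fell, with -0.39 and -1.11, and so did the initiation factor subunit Eif3l, with -0.54 and -0.72. Of 25 initiation factors, 5 rose and 5 fell in SAT, not far from the shares of all genes. In VAT 4 rose and 14 fell (median -0.37). The GTPase-activating factor Eif5 fell, with -1.35 and -0.91, and the scaffold Eif4g3 rose by 0.70 and 0.69.

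Ribosome biogenesis factors differed in direction between the depots by count, though their array means overlapped in VAT. The mean over the list was 6.72 to 6.78 in AP and 6.54 to 6.61 in AT from SAT. In VAT it was 6.39 to 6.65 in AP and 6.60 to 6.77 in AT. Of 57 such genes, 22 rose and 6 fell in SAT (median 0.15), and 4 rose and 16 fell in VAT (median -0.12). The snoRNP core protein Nop56 rose by 0.94 in SAT and the polymerase I factor Ubtf by 0.79, while the pseudouridine synthase Dkc1 fell, with -0.60 in SAT and -0.81 in VAT. The interaction was called for 1 of the 57, Ltv1 (-0.67, adjusted p = 0.0297, limma), a small subunit assembly factor. Of all genes, 1.16% were called lower in it. The list median was -0.34. Of 19 regulators of ribosomal protein synthesis, 3 rose and 3 fell in SAT, near the 16.1% and 16.3% of all genes. In VAT 1 rose and 6 fell, against 15.8% and 16.8%. Myc, a transcription factor of ribosome production and also an immediate early gene, rose by 3.33 and 3.15, and the mTOR target Eif4ebp1 fell, with -1.60 and -2.04. Of 11 paralogs and fusion proteins, 3 rose and 0 fell in SAT, and 1 rose and 1 fell in VAT. Rpl22l1, the paralog of Rpl22, rose by 0.58 and 0.71, and Rpl22 itself was at 0.16 and -0.03, uncalled.

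The proteins of the mitochondrial ribosome, which translates the messengers of the mitochondrial genome, had mostly lower values. Of 71 such genes, 2 rose and 45 fell in SAT (median -0.48), and 1 rose and 52 fell in VAT (median -0.56). Of all genes, 16.3% fell in SAT and 16.8% in VAT. Scaled to the housekeeping genes, whose median was lower in AP, 39 were higher and 1 lower in SAT. In VAT 27 were then higher and 3 lower. That scaling leaves values relative to the median of all genes unchanged by construction. These were -0.51 and -0.59 for the list's median and 0.41 and 0.30 for that of the cytosolic members. Mrpl42 fell, with -1.57 and -1.56, and Mrpl50 with -1.26 in SAT, whereas Mrpl52 rose by 0.57 and 0.30. The VAT call of Mrpl52 was lost without replicate 1 or 2 of AP from VAT or any 1 array of AT from VAT (adjusted p 0.0522 to 0.118).

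**Figure D5:**
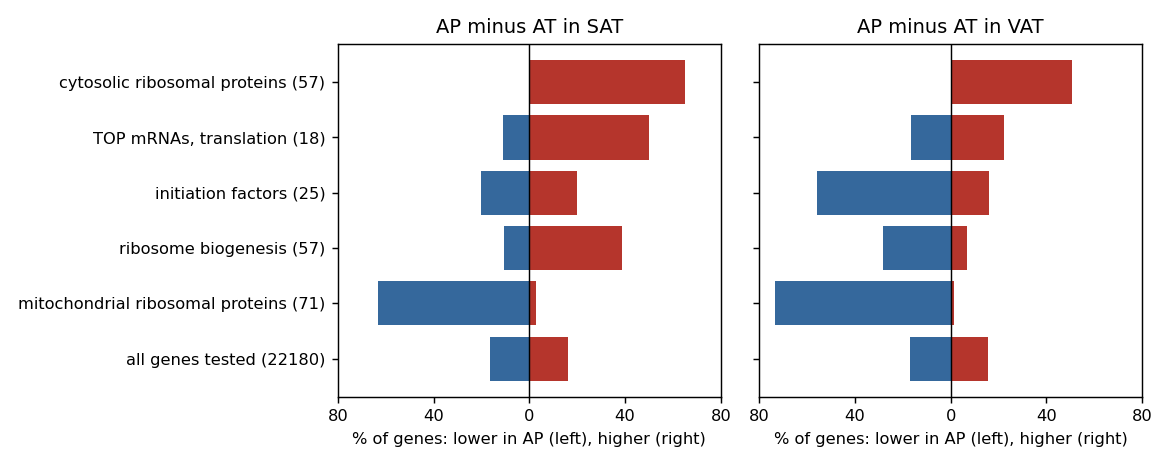
Share of genes (x axis, percent) called lower in AP (bars to the left) or higher in AP (bars to the right) in SAT and VAT, for the cytosolic ribosomal proteins, 4 lists of related genes and all genes tested, with the number of genes in brackets. The cytosolic members have bars to the right alone, and the mitochondrial ribosomal proteins lie mainly to the left, 45 and 52 of 71 genes.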

How the data were processed

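The authors deposited log2 values for each probe set, computed by RMA in Affymetrix Expression Console 1.3.0.187, per the submitters' processing notes. That the base is 2 follows from RMA and fits values of 1.69 to 13.48, and the level of summary and the annotation library are not given in the sources used here. They were used as deposited. RMA sets every array to a common distribution, so a change of total RNA per cell is not seen. Of 41345 probe sets, 23521 had 1 gene, 1814 several and 16010 none; only the first kind was tested.

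Group means were fitted over all 12 arrays with limma 3.58.1 in R 4.3.3 (8 residual and 6.84 prior degrees of freedom), 2-sided, with Benjamini-Hochberg adjustment over 22180 genes within a contrast. SE is that of the fit and SD the spread of 3 replicates. Precision is limited by how few arrays there are. The code was tested on simulated data.

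The members and lists were chosen with earlier results of these data known. By rule, the text names the called members with the largest differences and, per list, up to 2 called genes in each direction; further members are named for their role or after their values were seen. Alternatives were a replicate block, trend and robust options, array weights, compared groups alone, quantile and cyclic loess normalization, housekeeping scaling, a filter on dim genes, the mean over probe sets, probe sets of several genes, a demand of a log2 difference of 0.5 and leaving out each array. Promoter sequences are RefSeq's. Figures were drawn with Python 3.11.15.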

Additional observations from a re-analysis of the deposited data

Results flagged for a closer look

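A depot difference in the step from AT to AP was called for 6 of the related genes reported by the naming rule (limma, adjusted over all genes). That rule limits how many called genes are reported per list and direction. The 6 genes are therefore not a count of all those called in the lists, and more may have been called. Of all genes tested, 0.987% were called higher and 1.16% lower in the interaction. The interaction was -0.72 for Nap1l1 (adjusted p = 0.0151), from -0.39 in SAT and -1.11 in VAT. It was -0.72 for Mrpl54 (adjusted p = 0.0162), from 0.01 and -0.70, and -0.72 for Mrpl20 (adjusted p = 0.0233), from -0.43 and -1.15. It was -0.67 for Ltv1 (adjusted p = 0.0297), from 0.00 and -0.67. It was -0.60 for the cap-binding factor Eif4e (adjusted p = 0.0432), from -0.05 and -0.65, and -0.60 for Eif2b2 (adjusted p = 0.0414), from 0.20 and -0.40. The calls of Nap1l1 and Mrpl54 held on leaving out any 1 array. The call of Eif4e was lost on leaving out any of the 12 arrays (adjusted p 0.0523 to 0.119). That of Eif2b2 was lost for 11 of the 12 arrays, all but AP VAT 3 (0.0548 to 0.115). That of Ltv1 was lost for 7 arrays (0.0522 to 0.0881) and that of Mrpl20 for 6 (0.0561 to 0.0708). Scaled to housekeeping genes, the interaction was called for none of these 6 genes (adjusted p 0.270 to 0.533). The call of Eif4e was also lost with the replicate block (adjusted p = 0.0574), quantile normalization (0.0841) and cyclic loess (0.104), and that of Eif2b2 with the block (0.0710) and with trend and robust options (0.0528).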

How the results depend on the processing

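The counts of members called higher in AP were 36 to 38 in SAT and 28 to 31 in VAT under the replicate block (36 and 28), quantile normalization (38 and 30) and cyclic loess (36 and 31). They were 37 and 29 with trend and robust options or the filter on dim genes, 39 and 28 with array weights, 35 and 27 on the compared groups alone, and 36 and 26 with the mean over probe sets. For pairing, each gene's deviation from its group mean was correlated between arrays of different groups. Of 18 pairs of same-numbered arrays, 3 correlated over 0.1 (range -0.28 to 0.159). Pairs with different numbers ranged from -0.184 to 0.309. In these deviations, 5 of the 12 arrays correlated best with an array of their own number. Whether same-numbered arrays share animals was not tested. The replicate block left the other counts as they were. Leaving out 1 array gave 33 to 37 higher in SAT, 25 to 29 in VAT, 0 to 1 lower between depots in AP, 0 to 1 higher in AT and 0 to 2 lower interactions, with gaps between the subunits of 0.0851 to 0.126, 0.154 to 0.219, 0.244 to 0.306 and 0.214 to 0.235 in AP from SAT and VAT and AT from SAT and VAT. The 10 housekeeping genes had a lower median in every AP array than in any AT array. Scaling to them moved the median of all genes to 0.94 in SAT and 0.90 in VAT. Then 57 members were called higher in each depot and 0 lower between depots in AP. The uncalled negative values turned positive there, in SAT for Rpl30 (0.90), Rpl37 (0.80), Rpl37a (0.61), Rpl6 (0.75) and Rps15 (0.86), and in VAT for Rpl22 (0.84), Rpl30 (0.66), Rpl37 (0.78), Rpl37a (0.83), Rpl41 (0.81), Rpl7 (0.78), Rps14 (0.76), Rps15 (0.66) and Rps25 (0.73). Among the related genes, falls became positive values in SAT for Eif3l (0.37), Nap1l1 (0.52), Eif4a2 (0.065), Dkc1 (0.31), Wdr12 (0.35) and Larp4 (0.38), and in VAT for Eif3l (0.15), Eif5b (0.013), Dkc1 (0.05), Nop10 (0.09) Rpl7l1 (0.45) and Larp4 (0.25). With probe sets of several genes added (69 members), Rpl37a was at 0.50 in SAT and Rplp2 at -0.73 in VAT, the 1 member called lower, and the gaps were 0.884, 0.902, 0.970 and 0.928. With the mean over probe sets, the gaps of AT were 0.179 and 0.135 and 0 members were lower between depots in AP. A demand of at least 0.5 left 25 members higher in SAT and 12 in VAT. Members lower in the interaction numbered 3 with trend and robust options, 2 with array weights, 1 with quantile normalization and 1 with the filter on dim genes. With trend and robust options 1 member was higher in VAT in AT, and with array weights 2 were lower between depots in AP. The interaction was not run on compared groups alone, since it uses all arrays. Apart from the scaling and the alternatives built with fewer or other probe sets, the cause of these changes was not tested. Dim probe sets limit what can be detected: 3 of the 17 members under a mean of 6 were called in each depot.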

Other observations

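The 12 symbols annotated only to probe sets of several genes were fitted as an alternative. In SAT, Rpl12 rose by 0.90 (adjusted p = 1.04e-06, limma), Rpl36 by 0.66, Rpl10 by 0.52, Rpl35a by 0.50, Rpl31 by 0.48 and Rps21 by 0.37. In VAT, Rpl12 rose by 0.76, Rpl10, which completes the large subunit late in its assembly, by 0.71, Rpl36 by 0.48, Rpl31 by 0.42 and Rps21 by 0.40. Rpl13a (0.25 and 0.06), Rpl23 (0.00 and 0.03) and Rps2 (-0.17 and -0.33) were bright but uncalled in both depots. A probe set of several genes can report any of them.

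Within a group, the median SD of a member over its 3 arrays was 0.079 in AP from SAT, 0.095 in AP from VAT, 0.110 in AT from SAT and 0.113 in AT from VAT. The widest spreads were those of Rps15 (0.476 in AP from SAT and 0.658 in AT from SAT), Rps16 (0.705 in AP from VAT) and Rpl34 (0.391 in AT from VAT). None of these 3 genes was called in any comparison with all 12 arrays and probe sets of 1 gene. With probe sets of several genes added, Rps16 was called in both depots and Rpl34 in SAT (0.34, adjusted p = 0.00759, limma). Rps16 was also called in VAT without AP from VAT 3 (adjusted p = 0.0460).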
